A study of Mus musculus with 27 samples.

Results

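The comparison set tumours taken at 16 h under LDE225 against tumours taken at 16 h under vehicle, in a mouse model of medulloblastoma. Its 6 tumours, 3 treated and 3 vehicle, were chosen by their titles, which give the agent and the time, from 27 samples in the series, of which 21 were RNA arrays. All tumours in the series came from medulloblastoma of Ptch+/-p53-/- mice. Cells dissociated from such tumours were grown under the skin of Harlan nu/nu mice, on the right flank, and animals were assigned at random to groups of similar mean tumour volume. Treated mice received LDE225 at 20 mg/kg/day once daily, and all 6 tumours were labelled sensitive. Tumours of the same genotype and host, vehicle or treated with the same dose, were also profiled at 4 h (n = 3 and 3) and 48 h (n = 2 and 2). A further 5 tumours were resistant to LDE225 at 20 or 160 mg/kg/day, given bid (in split daily doses) and not once daily, and were taken on day 26. Each array measured 1 frozen tumour from a separately numbered mouse. Nothing in the labels says whether the grafts came from separate donor tumours, so p-values measure the spread between grafted tumours. In the main fit that spread was estimated over all 21 RNA arrays, the 5 resistant tumours among them, and not over the 6 tumours of 16 h alone. As a model, every group lacked p53 and 1 Ptch allele and grew outside the brain, in a host without T cells whose vessels and stroma are part of the tissue measured.

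Ptch1 is a membrane protein that holds the receptor Smo inactive. When Ptch1 function is lost, Smo signals to the Gli transcription factors without a Hedgehog ligand, which drives proliferation of cerebellar granule neuron precursors, the cells from which this class of medulloblastoma arises. LDE225, also known as sonidegib, binds and blocks Smo. The comparison addresses which transcripts had moved within the first day under the drug. Treated tumours 2 and 3 of 16 h stood apart from all other arrays in their signal for added bacterial control transcripts, so the main results are also given without both.

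At 16 h, transcripts for transferrin receptor and pyruvate carboxylase were lower in every treated tumour than in any vehicle tumour. The same held for 12.3% of the 45037 ordinary probe sets. Both are among 5 genes with control probe sets, which were taken up after their values had been seen. Of the control probe sets, 1 of 3 for transferrin receptor and 4 of 4 for pyruvate carboxylase passed the test. Across the array, 4194 of 45037 probe sets had changed, which is 9.31%. Of these, 2224 rose (4.94%) and 1970 fell (4.37%). Without treated tumours 2 and 3, 808 passed, of which 331 rose and 477 fell. The deepest fall was 91.7-fold and the highest rise 11.8-fold among the probe sets bright enough to be named, both with the offset of 4 that was added to every signal. A probe set is a group of short probes on the array that read 1 transcript or a few related ones. A probe set was called changed when its adjusted p was below 0.05 in limma with Benjamini-Hochberg adjustment, and a fold change is on the scale of log2(signal + 4). No table at hand links the ordinary probe sets of this array to genes, so these are given by identifier or by count. For the same reason 34 gene lists, Hedgehog targets, cell cycle genes and markers of host cell types among them, were not counted, and the tissue label was not checked against markers. In bulk tissue, fewer cells of a type and less RNA per cell cannot be told apart.

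Most changes were of moderate size. The median log2 change was 0.84 among probe sets that rose and -0.88 among those that fell, while it was 0.07 over all probe sets. A change of at least 2-fold was seen for 780 that rose and 816 that fell, together 3.54% of those tested. At larger sizes 66 rose and 90 fell at least 4-fold, 3 rose and 11 fell at least 8-fold, and 0 rose and 2 fell at least 16-fold. The 3 treated and 3 vehicle values did not overlap for 4177 of the 4194 called probe sets. The same held for 12932 of all 45037, or 28.7%, so separation of the 6 values was common also among probe sets that did not pass. The split by direction depended on how arrays were scaled. With each array brought to the same median, 827 rose and 2020 fell, so that rises made up 29% of calls in place of 53%, and the median over all probe sets was -0.05. On that scaling 452 rose and 1123 fell at least 2-fold, 38 and 122 at least 4-fold, and 1 and 18 at least 8-fold. With an offset of 27, 361 rose and 504 fell at least 2-fold. Quantile normalization gave 1919 rises and 2257 falls.

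**Figure D1:**
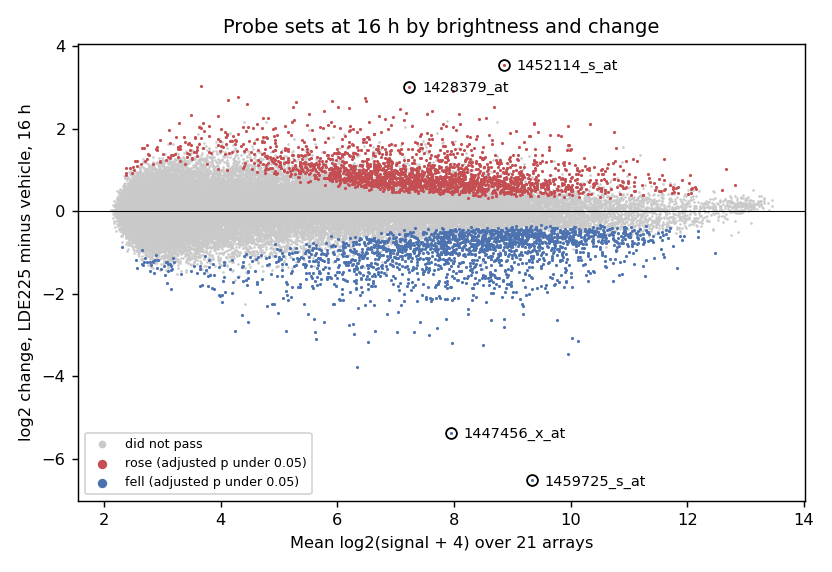
Each point is 1 of 45037 probe sets, with its mean log2(signal + 4) over 21 arrays on the horizontal axis and its log2 change at 16 h (LDE225 minus vehicle, 3 tumours each) on the vertical axis. Red points rose and blue points fell at an adjusted p under 0.05, and the 4 ringed probe sets are those described by identifier, with log2 changes of -6.52, -5.37, 3.55 and 3.02.

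The array carries control probe sets whose identifiers name 5 mouse genes, and these are the only transcripts that could be named from the deposited table. All 5 genes are given here, although they were taken up after their values had been seen, and they were tested in a fit that added the control probe sets to the rest (4200 calls among 45101). Transferrin receptor brings transferrin-bound iron into cells and is abundant on dividing cells. The signal of its probe set at the 3′ end was 116.3, 97.2 and 84.2 in vehicle tumours 1, 2 and 3, and 32.9, 26.3 and 31.8 in treated tumours 1, 2 and 3. All treated values lay well below the lowest vehicle value. The log2 change was -1.58, a 2.99-fold fall, with a standard error of 0.28 (limma, adjusted p = 0.00092).

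Both other probe sets for transferrin receptor were dim, and neither passed. In the middle of the transcript the vehicle signals were 30.1, 16.9 and 21.1 and the treated signals 5.1, 11 and 8.1, with a log2 difference of -1.15 (limma, adjusted p = 0.075). At the 5′ end the vehicle signals were 22.5, 19.4 and 22.7 and the treated signals 9.2, 13.1 and 4.6, with a log2 difference of -1.03 (limma, adjusted p = 0.084). The groups did not overlap on any of the 3 probe sets.

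Pyruvate carboxylase is the mitochondrial enzyme that turns pyruvate into oxaloacetate, which refills the citric acid cycle and begins gluconeogenesis. It has 4 control probe sets, and all 4 fell. At the 3′ end the signal was 457.7, 636.1 and 549.8 in vehicle tumours and 200.9, 294.3 and 196.2 in treated tumours. The groups were apart, and the log2 change was -1.25, with a standard error of 0.25 (limma, adjusted p = 0.0029). A probe set in the middle of the transcript read 122.3, 146.2 and 159.0 in vehicle and 48.7, 65.2 and 43.6 in treated tumours, and fell by 1.38 on the log2 scale (limma, adjusted p = 0.0029). The second one in the middle fell by 1.01 on the log2 scale (limma, adjusted p = 0.042) and the one at the 5′ end by 0.81 (limma, adjusted p = 0.015). Treated and vehicle tumours did not overlap on any of the 4. Without treated tumours 2 and 3 the 3′ probe sets kept their size but no longer passed, with differences of -1.42 for pyruvate carboxylase (limma, adjusted p = 0.055) and -1.47 for transferrin receptor (limma, adjusted p = 0.088).

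The housekeeping controls did not pass in this fit, and the falls of transferrin receptor at the 3′ end and of all 4 pyruvate carboxylase probe sets passed also with median scaling and with quantile normalization. For actin, a component of the cytoskeleton, the 3 probe sets had log2 differences between 0.35 and 0.38 (limma, adjusted p from 0.15 to 0.19). On 2 of the 3 the treated values lay above all vehicle values, which held for 16.4% of the 45037 ordinary probe sets. With quantile normalization 2 of the 3 actin probe sets passed, with differences of 0.21 to 0.34 over the 3 (limma, adjusted p from 0.013 to 0.056). For Gapdh, an enzyme of glycolysis, the 3 differences lay between 0.13 and 0.15 (limma, adjusted p from 0.73 to 0.77), and with median scaling they were slightly negative, from -0.03 to -0.01. The 3 probe sets for 18S ribosomal RNA gave differences from -0.18 to 0.18 with overlapping groups.

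**Figure D2:**
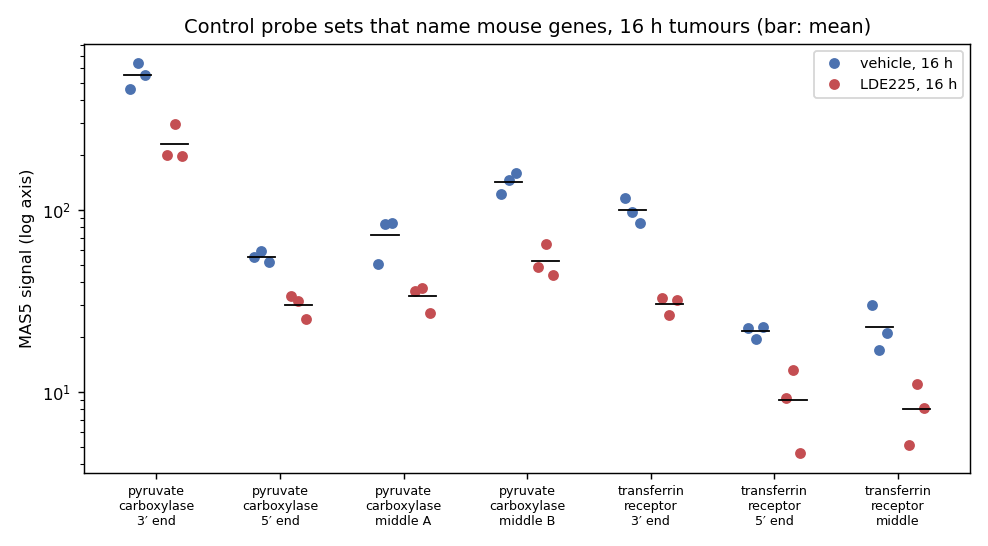
Points are the deposited MAS5 signals (log axis) of each of the 6 tumours of 16 h, blue for vehicle and red for LDE225, for the 7 control probe sets of pyruvate carboxylase and transferrin receptor, and bars are group means. The red points lie below all blue points on each probe set, for example 196.2 to 294.3 against 457.7 to 636.1 for pyruvate carboxylase at the 3′ end.

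At 4 h no probe set of either gene passed, where 29 of all 45101 in this fit did. At 48 h, in separate tumours, all 4 of pyruvate carboxylase and 2 of 3 of transferrin receptor passed, where 7017 of all 45101 did. The 3′ probe set of transferrin receptor had a log2 difference of -0.03 at 4 h (limma, adjusted p = 1) and fell by 1.46 at 48 h (limma, adjusted p = 0.0061). The middle probe set of that gene had a difference of -0.98 at 48 h (limma, adjusted p = 0.19). For pyruvate carboxylase at the 3′ end the 4 h signals did not overlap, at 442.4 to 542.2 in treated and 634.9 to 664 in vehicle tumours. The difference of -0.39 did not pass (limma, adjusted p = 0.9). On its 5′ probe set and both middle ones the 4 h groups overlapped, with log2 differences of 0.06, 0.02 and -0.1. How many of all probe sets were apart at 4 h was not counted. At 48 h the log2 change of pyruvate carboxylase at the 3′ end was -1.29 (limma, adjusted p = 0.0072). In the 5 resistant tumours the transferrin receptor signal at the 3′ end lay between 122.9 and 314.4, above all 6 tumours of 16 h. That range was not above all sensitive tumours, since the vehicle tumours of 48 h read 86.9 and 134.3. For pyruvate carboxylase at the 3′ end the resistant signals lay between 262 and 468.3, a range that overlaps both 16 h groups.

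Among the probe sets without a gene name, 3417 passed at 16 h with no overlap between groups and a mean signal of at least 100 in the higher group, 1764 of them rising and 1653 falling. The 2 with the largest fall and the 2 with the largest rise are described. Their size at 16 h is what chose them, so it is a description, while their values at 4 h and 48 h come from other tumours.

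The probe set 1459725_s_at had the largest fall. Its signal was 3553.7, 3064.0 and 2325.9 in vehicle tumours 1, 2 and 3, and 27.8, 34.1 and 23.2 in treated tumours 1, 2 and 3. The vehicle tumours were all high (2980 ± 618, SD, n = 3) and the treated tumours all low (28.4 ± 5.47, SD, n = 3). The log2 change was -6.52 (standard error 0.59). It was -5.75 with an offset of 27 and -5.70 against the mean of the vehicle groups of all 3 times. At 4 h, treated tumours read 1315.6, 1180.7 and 1343.0 against 1585.4, 2538.2 and 1483.9 in vehicle, and the log2 difference of -0.50 did not pass (limma, adjusted p = 0.97). Although the 4 h groups did not overlap, no value there came near the lows of 16 h. At 48 h, treated tumours read 53.5 and 32.7 and vehicle tumours 812.6 and 916.5, with a log2 difference of -4.24 (limma, adjusted p = 0.00045).

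The next largest fall was that of 1447456_x_at, with a log2 change of -5.37 ± 0.71 (standard error). Vehicle tumours of 16 h read 1158.3, 951.5 and 673.7 and treated tumours 31.4, 4.1 and 32.9. Treated tumour 2 was lower than the others and close to the offset of 4, and the change was -5.67 with an offset of 1 and -4.29 with an offset of 27. At 4 h the groups overlapped, with 403.8, 735.9 and 496.6 in vehicle and 395.4, 296.3 and 492.2 in treated tumours (log2 difference -0.45, limma, adjusted p = 0.99). At 48 h the signal was 271.4 and 296.5 in vehicle and 26.6 and 16.2 in treated tumours, a log2 change of -3.53 (limma, adjusted p = 0.0081). An identifier ending in x_at marks a probe set whose probes can also bind unrelated transcripts.

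The largest rise was that of 1452114_s_at, by 3.55 on the log2 scale (standard error 0.55). Its signal was 146.7, 158.9 and 166.1 in vehicle tumours and 1710.9, 2051.0 and 1918.7 in treated tumours of 16 h. The 3 treated tumours were alike (1890 ± 171, SD, n = 3), and all exceeded the highest vehicle value by a wide margin. At 4 h the treated signals, 417.5, 318.8 and 346.3, were already above the vehicle signals, 200.3, 182.8 and 202.6, but the log2 difference of 0.87 did not pass (limma, adjusted p = 0.89). At 48 h treated tumours read 1035.4 and 1075.6 and vehicle tumours 248.8 and 214.5, a log2 rise of 2.17 with a standard error of 0.67 (limma, adjusted p = 0.031).

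The other rising probe set was 1428379_at. At 16 h its signal was 62.5, 56.4 and 73.6 in vehicle and 516.5, 520.9 and 602.6 in treated tumours, a log2 change of 3.02 (standard error 0.35). At 4 h the groups overlapped, with 43.5, 67.5 and 64.7 in vehicle and 62.2, 70.4 and 45.2 in treated tumours, and the log2 difference was 0.02 (limma, adjusted p = 1). At 48 h the treated signals were higher than at 16 h, 1139.5 and 1268.2, against 50.2 and 28.8 in vehicle, a log2 rise of 4.84 with a standard error of 0.43 (limma, adjusted p = 6.2e-07). The step in drug effect from 16 h to 48 h, 1.82 on the log2 scale, did not pass in a direct test (standard error 0.55, limma, adjusted p = 0.079). For the other 3 the direct test between 48 h and 16 h did not pass either, with log2 differences of 2.28 for 1459725_s_at, 1.84 for 1447456_x_at and -1.38 for 1452114_s_at (limma, adjusted p of 0.21, 0.44 and 0.45). With the 16 arrays of sensitive tumours alone, this test passed for 1428379_at (limma, adjusted p = 0.0035), 1459725_s_at (limma, adjusted p = 0.00058) and 1452114_s_at (limma, adjusted p = 0.00033). The standard error for 1452114_s_at was 0.86 with all 21 arrays and 0.19 with these 16, and for 1459725_s_at it was 0.94 and 0.33.

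**Figure D3:**
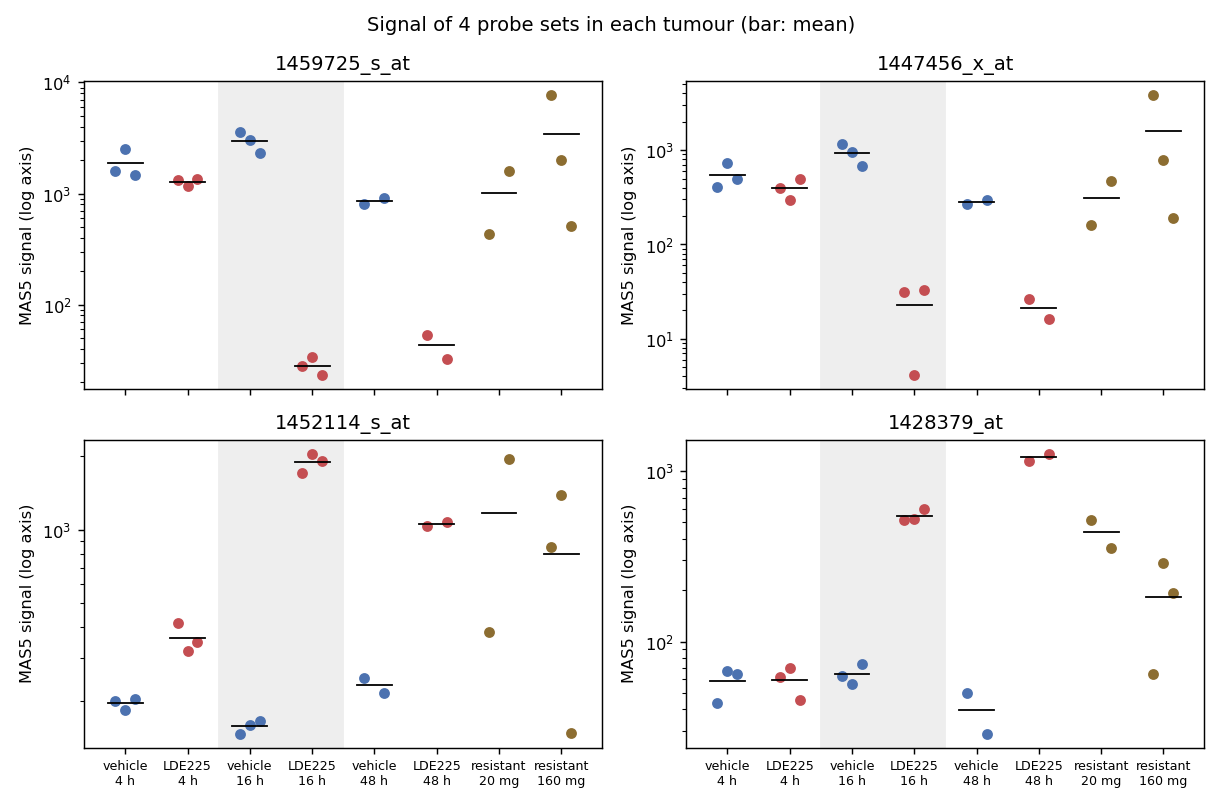
Each panel gives the MAS5 signal (log axis) of 1 probe set in all 21 tumours, by group, with bars at group means, blue for vehicle, red for LDE225 and brown for resistant tumours, and the 16 h groups shaded. The treated tumours of 16 h stand apart from vehicle in all panels, at 23.2 to 34.1 against 2325.9 to 3553.7 for 1459725_s_at and at 516.5 to 602.6 against 56.4 to 73.6 for 1428379_at.

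In resistant tumours these 4 probe sets scattered widely. At 20 mg/kg/day 1459725_s_at read 434.4 and 1597.7, and at 160 mg/kg/day 7701.1, 2024.1 and 515.7, all above every treated tumour of 16 h. The resistant signals of 1447456_x_at lay between 159.9 and 3845.5, also above all treated tumours of 16 h. For 1452114_s_at they ran from 147.5 to 1957.3, spanning the range from vehicle to treated tumours. For 1428379_at they ran from 64.6 to 519.4.

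Calls were found mainly among bright probe sets. When the probe sets were split into 5 equal parts by mean signal over all arrays, 0.5% of the dimmest part and 1.1% of the next were called, against 4.57% in the middle, 16.7% in the fourth and 23.7% in the brightest (mean signals of 215 to 11200). Direction differed between the upper parts. In the fourth part 956 rose and 549 fell, while in the brightest 931 rose and 1202 fell. Changes of at least 2-fold in the brightest part were 205 rises and 334 falls. The excess of rises in the fourth part was not stable to scaling: it held 371 rises and 642 falls with median scaling, and 611 and 717 with quantile normalization. In the brightest part falls outnumbered rises under all 3 scalings, with 292 against 1121 and 1079 against 1231 in the latter 2. The brightest part also held the smallest changes among called probe sets, with medians of 0.70 for rises and -0.74 for falls, against 1.21 and -1.23 in the dimmest. Probe sets with the suffix s_at or a_at, which read several transcripts of a gene or gene family, were called at 14.3% and 14.5%, those with plain at at 8.36% and those with x_at at 9.63%. Their median signals were 132, 130, 18.8 and 48.4 in that order.

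The count of calls was lower at 4 h and, with all tumours, higher at 48 h than at 16 h. At 4 h, 29 probe sets passed (0.0644%), 2 higher (0.00444%) and 27 lower (0.06%), and at 48 h 7009 did (15.6%), 3673 higher and 3336 lower. The 48 h contrast rests on 2 tumours a side. Omitting vehicle tumour 3 or treated tumour 1 or 2 of 48 h brought its count below that of 16 h with all 6 tumours. Omitting vehicle tumour 1 of 48 h did not. Each such omission left a lone tumour on 1 side, assumed to vary like the rest. With 1 tumour of 16 h omitted, the count at 16 h ran from 2486 to 3615. At 4 h the count was 3, 4 or 4 when vehicle tumour 1, 2 or 3 of 4 h was omitted, and 13 or 5 when treated tumour 1 or 2 was. The balance at 48 h turned with scaling, to 1915 higher and 6819 lower with each array at the same median, and 3102 and 4324 with quantile normalization. A direct test of the drug effect at 16 h against that at 4 h passed for 1048 probe sets (2.33%), with the log2 effect higher at 16 h for 428 (0.95%) and lower for 620 (1.38%). The count fell to 691 or 575 when vehicle tumour 1 or 3 of 4 h was left out, and to 681 or 586 when treated tumour 1 or 2 of 4 h was. Omitting vehicle tumour 1 of 16 h gave 660, and omitting treated tumour 3 of 16 h gave 534. Of the 4 named probe sets, 3 passed this test, with differences of -6.01 for 1459725_s_at (limma, adjusted p = 0.00043), -4.92 for 1447456_x_at (limma, adjusted p = 0.01) and 3.00 for 1428379_at (limma, adjusted p = 0.002). All 4 had been chosen for their size at 16 h, which favours a difference in this test. The difference of 2.69 for 1452114_s_at missed the threshold (limma, adjusted p = 0.076), which it passed with the 16 arrays of sensitive tumours alone, with array weights and with a covariate for control signal. For transferrin receptor at the 3′ end it was -1.55 (limma, adjusted p = 0.044), a call lost in 11 of 12 fits that left out 1 tumour. Without treated tumours 2 and 3 of 16 h the test gave 161 calls, and of those named here only 1459725_s_at passed (-6.03, limma, adjusted p = 0.019). The differences were then -4.24 for 1447456_x_at (limma, adjusted p = 0.16), 2.92 for 1428379_at (limma, adjusted p = 0.061) and -1.44 for transferrin receptor (limma, adjusted p = 0.33).

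Falls and rises of 16 h were then followed to 48 h. The contrasts at 4 h, 16 h and 48 h have no arrays in common, though they share 1 estimate of the spread. Among the 1970 falls of 16 h, 1209 were falls at 48 h as well, which is 61.4% where 7.41% of all probe sets fell at 48 h, and 5 rose. Of the 2224 that rose, 780 rose again, which is 35.1% where 8.16% of all did, and 60 fell. The difference between these shares was not tested. The shares over all probe sets include dim ones, of which few were called at 16 h, and brightness was not matched. The median log2 change of the fallen was -0.07 at 4 h, -0.88 at 16 h and -0.81 at 48 h, and that of the risen was 0.04, 0.84 and 0.45. The shared falls numbered 685, 900 or 839, and the shared rises 407, 492 or 468, when vehicle tumour 3 or treated tumour 1 or 2 of 48 h was omitted. With median scaling 1555 falls and 239 rises were shared, and with quantile normalization 1412 and 685. Without treated tumours 2 and 3 of 16 h, 398 falls and 189 rises were shared.

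The direct test between 48 h and 16 h passed for 1346 probe sets (2.99%), 547 higher (1.21%) and 799 lower (1.77%) at 48 h. The balance turned with an offset of 27, to 1172 higher and 963 lower, and was 258 and 944 with median scaling. Among the risen, the drug effect at 48 h was further in the same direction for 46 and shifted the other way for 220 (9.89%). Of the latter, 60 lay below vehicle at 48 h and 159 did not differ from vehicle by the test at 48 h. Among the fallen, the effect was further in the same direction for 46 and shifted the other way for 46 (2.34%). Whether vehicle or treated tumours differed between 16 h and 48 h was not tested, so these counts do not tell which side moved. The probe sets were chosen on the 16 h arrays, which favours a large effect at 16 h in both direct tests. The count was 229 with vehicle tumour 3 of 48 h omitted, and 517 or 397 with treated tumour 1 or 2 of that time omitted. Omitting treated tumours 2 and 3 of 16 h together gave 172. Omitting vehicle tumour 1 of 16 h gave 818, and omitting treated tumour 1 or 3 of 16 h gave 888 or 770.

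**Figure D4:**
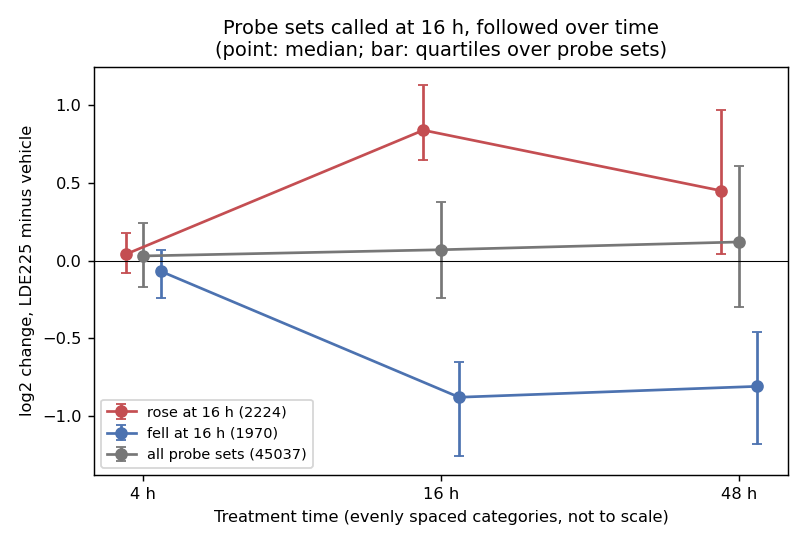
Points are the median and bars the quartiles over probe sets of the log2 change (LDE225 minus vehicle) at 4 h, 16 h and 48 h, shown as evenly spaced categories, for the 2224 probe sets that rose at 16 h, the 1970 that fell and all 45037. The medians at 16 h are set by the choice of the sets, and those at 48 h were 0.45, -0.81 and 0.12.

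Read the other way, probe sets chosen at 48 h were already displaced in each treated tumour of 16 h. For the 3673 that rose at 48 h, the median log2 distance from the vehicle mean of 16 h was 0.45, 0.51 and 0.45 in treated tumours 1, 2 and 3, and 0.04, -0.06 and 0.01 in vehicle tumours 1, 2 and 3. For the 3336 that fell, it was -0.30, -0.37 and -0.37 in treated and -0.05, 0.06 and -0.01 in vehicle tumours. The median over all probe sets at 16 h was 0.07. At 16 h 21.2% of the former rose, where 4.94% of all probe sets did, and 36.2% of the latter fell, where 4.37% of all did. The 27 that fell at 4 h had medians of -1.21, -1.44 and -1.57 in the treated tumours of 16 h, and 22 of them (81.5%) fell at 16 h, where 4.37% of all did. Here too the shares over all probe sets include dim ones, and brightness was not matched. Falls shared by 4 h and 16 h numbered 3, 3 or 4 when vehicle tumour 1, 2 or 3 of 4 h was omitted, and 9 or 5 when treated tumour 1 or 2 was. Neither of the 2 that rose at 4 h passed at 16 h.

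The treated side moved between 4 h and 16 h. Vehicle tumours of 16 h against those of 4 h gave 0 calls (0%) in limma, with 2423 at an unadjusted p under 0.05, and 5 calls without vehicle tumour 2 of 16 h. Treated tumours of 16 h against those of 4 h gave 2443 (5.42%), 1127 higher (2.5%) and 1316 lower (2.92%). That count was 1467 or 1461 when treated tumour 1 or 2 of 4 h was omitted, and 1559, 1573 or 1123 when treated tumour 1, 2 or 3 of 16 h was. Omitting treated tumours 2 and 3 of 16 h together gave 340 (83 higher, 257 lower). The split was 369 higher and 1365 lower with median scaling, and turned to 2005 and 1778 with the 16 arrays of sensitive tumours alone. For the probe sets that rose at 16 h, the median step from 4 h to 16 h was -0.23 in vehicle and 0.57 in treated tumours, and for those that fell it was 0.14 and -0.64. These steps reuse the 16 h arrays on which the sets were chosen, which moves both sides apart. The 4 named probe sets had vehicle steps of 0.69, 0.77, -0.31 and 0.14 and treated steps of -5.32, -4.15, 2.38 and 3.14, for 1459725_s_at, 1447456_x_at, 1452114_s_at and 1428379_at.

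Within the 6 arrays, treated tumours 2 and 3 stood apart in their bacterial hybridization controls, transcripts added to every sample in fixed amounts. The geometric mean signal of 9 such probe sets was 1843 and 1676 on these arrays, 842.9 to 911.5 on the other arrays of 16 h, and at most 1242 on the other 19. The same 2 arrays had the highest mean signals of the 6, 245.8 and 241 against 223.6 to 236.9, and the highest 3′ to 5′ ratios of actin, 1.91 and 1.86 against 1.58 to 1.81. Their Gapdh ratios, 0.959 and 0.94, lay within those of the other arrays of 16 h, 0.91 to 0.98. An actin ratio of 1.87 was also seen in vehicle tumour 3 of 4 h. The actin ratios were 1.25 to 1.33 on the arrays of 48 h and 1.27 to 1.4 on those of resistant tumours. All of these lay below the lowest ratio at 4 h and 16 h, 1.53. What this difference does to comparisons across these arrays was not tested. Treated arrays correlated at 0.967 to 0.974 with each other. Vehicle arrays correlated at 0.963 to 0.973 with each other and at 0.950 to 0.965 with treated arrays. The 4 probe sets given by identifier passed at 16 h also without both, with log2 changes of -6.53 for 1459725_s_at, -4.68 for 1447456_x_at, 3.41 for 1452114_s_at and 2.94 for 1428379_at (limma, adjusted p from 0.00087 to 0.038). The part of the control signal in the results was not tested beyond these values and a fit with that signal as a covariate, which gave 2417 calls. Leaving out 1 tumour gave 2517 calls without vehicle tumour 1, 2772 without treated tumour 1 and 2486 without treated tumour 3.

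**Figure D5:**
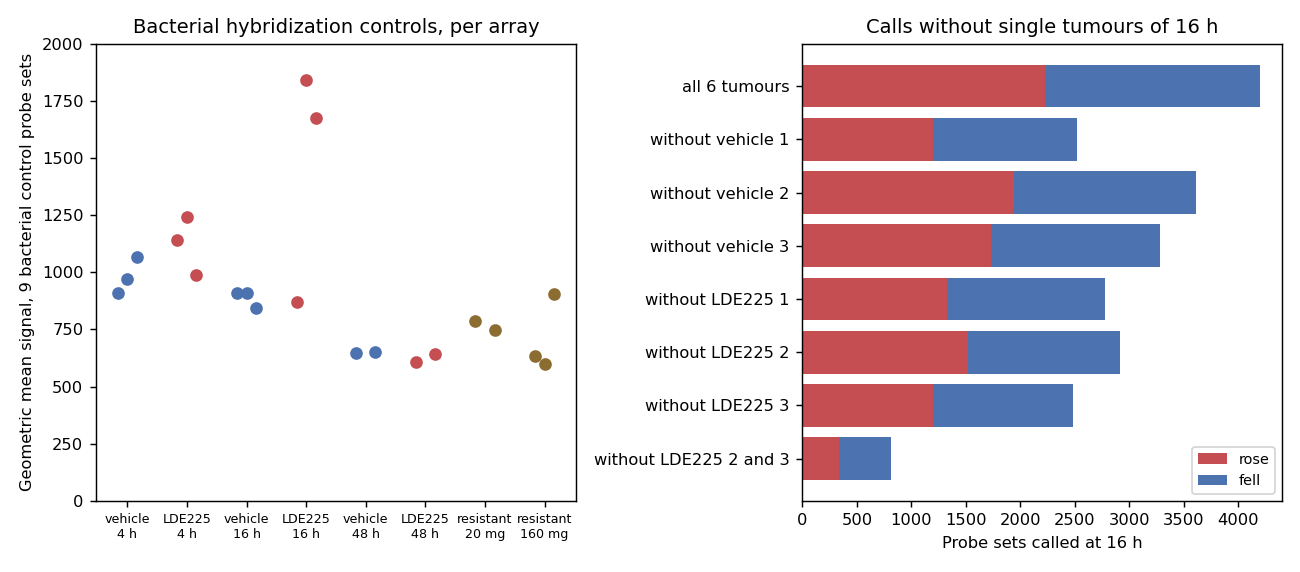
The left panel gives the geometric mean signal of 9 bacterial control probe sets on each of 21 arrays, by group, where treated tumours 2 and 3 of 16 h lie at 1843 and 1676. The right panel gives the number of probe sets that rose (red) and fell (blue) at 16 h with all 6 tumours (4194) and with tumours left out, down to 808 without both of those arrays.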

How the data were processed

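RNA from 21 tumours was measured on one-colour Affymetrix mouse genome arrays. The deposited values are linear probe set intensities. Per the submitters' processing notes, MAS5 was the program. Its version and target intensity are not given in the sources used here. An offset of 4 was added before log2, which understates changes of dim probe sets. All 45037 probe sets other than 64 controls were tested, without a filter on low signal. The 21 arrays entered a linear model of 8 groups (limma 3.58.1 under R 4.3.3) with a variance trend, 13 residual degrees of freedom, two-sided tests and Benjamini-Hochberg adjustment over the 45037. The rule for naming took 2 probe sets per direction because no table at hand pairs them with genes. Members and lists were chosen with earlier results of these data known. The number of arrays limits the precision. On simulated data for the 16 h comparison, with 200 of 45037 probe sets changed, the model recovered 27% of changes of 1 and 75% of changes of 2 on the log2 scale, and 11.5% and 4.46% of its calls were false. It recovered 5.5% and 52% for the effect at 16 h against 4 h, and 2% and 38% for 48 h against 16 h. Each setting was simulated in a single draw, with far fewer changed probe sets than the 4194 called at 16 h. These rates therefore need not hold for the real comparison. DNA arrays of the series were not used. Figures were drawn with matplotlib 3.10.9.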

Additional observations from a re-analysis of the deposited data

Results flagged for a closer look

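The effect of LDE225 differed between 16 h and 4 h in a direct test for 1048 probe sets, among them 1459725_s_at with a difference in log2 effect of -6.01, 1447456_x_at with -4.92 and 1428379_at with 3.00. The transferrin receptor at the 3′ end also passed, with -1.55, and this call was lost in most of the fits that left out 1 tumour. Between 48 h and 16 h the effect differed for 1346 probe sets. The named probe sets had been chosen for their size at 16 h, which favours a difference in these tests.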

How the results depend on the processing

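All 319 recomputed values of single probe sets kept their direction, and 291 kept their side of the threshold. The 16 arrays of sensitive tumours alone gave 114 calls at 4 h, 1913 for the effect at 16 h against 4 h, 2610 for 48 h against 16 h, 3783 for treated tumours over time, 98 shared by 16 h and 4 h and 176 of opposite direction at 16 h and 48 h. Array weights gave 49, 1808, 2522, 4278, 43 and 146 in that order, and no variance trend gave 2, 485 and 680 for the first 3, with 2 shared with 4 h and 38 opposite. Median scaling gave 409 for 16 h against 4 h. An offset of 27 gave 2135 for 48 h against 16 h and 865 changes of at least 2-fold at 16 h, and quantile normalization gave 19 calls at 4 h. Chosen after seeing the data, the bacterial control signal as a covariate gave 2417 calls at 16 h, 590 for 48 h against 16 h, 1301 shared with 48 h and 25 opposite. Without treated tumours 2 and 3, which leaves a lone tumour assumed to vary like the rest, these were 808, 172, 587 and 8, with 161 for 16 h against 4 h, 340 for treated tumours over time, 13 shared with 4 h and 633 of at least 2-fold. The cause of these shifts was not tested. Fits that left tumours out also had fewer samples, and the part of sample number in their counts was not tested either.

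With 1 tumour left out, counts ran from 2486 to 3615 at 16 h, 3 to 28 at 4 h, 2506 to 6355 at 48 h, 534 to 1020 for 16 h against 4 h, 229 to 1562 for 48 h against 16 h, 0 to 5 for vehicle and 1123 to 2145 for treated tumours over time. Changes of at least 2-fold ran from 1223 to 1552, calls shared with 48 h from 1092 to 1711, opposite calls from 19 to 85 and calls shared with 4 h from 3 to 23. Leaving out a 48 h tumour leaves a lone one, assumed to vary like the rest.

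Mouse numbers recur across groups. At 16 h the deviations of tumours with the same number correlated at -0.26, -0.27 and 0.28, and those with different numbers at -0.31 to 0.44. With so few tumours in a group, these values cannot decide whether the numbers pair them. With a replicate block the count at 16 h was 4045 over 21 arrays and 3070 over the 6 arrays of 16 h. Without the block these counts were 4194 and 4655. The counts of gene lists and the choice among probe sets of a gene were not run, because no table used here pairs probe sets with genes. Dim probe sets limit detection: 0.5% of the dimmest 9008 were called.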
